A study of Homo sapiens with 18 samples.

Results

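The proteasome genes described here are the 42 genes whose symbol is PSM followed by a letter from A to G and a number, among 19775 genes with a probe set that names them alone. They were chosen by symbol, from 81 such probe sets of 54675 on the array, and each gene is represented by its brightest probe set. The genes fall into 6 core alpha, 7 core beta, 8 base, 6 lid and 4 immunoproteasome genes, 3 genes of other activators and an inhibitor, 7 assembly chaperones and 1 core gene of restricted tissue range. PSMA6 and PSME2 share their probe sets with other genes and were left out, and PSMC5, PSMD7, PSMD13 and PSMB11 were not analysed here.

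RNA was measured in A549 cells, an established human lung carcinoma line, cultured at the air-liquid interface and kept for 72 h in an exposure or a reference chamber. Formaldehyde was supplied to the exposure chamber alone, at 0, 0.1 or 0.5 ppm in sets of 3 experiments, and the parallel reference chamber of each experiment received none. This gives 6 groups of 3 arrays, 1 array per culture sample: the reference and the exposure chamber of the 0 ppm, of the 0.1 ppm and of the 0.5 ppm experiments. All groups share the cell line, the culture at the air-liquid interface and the time in a chamber, and a single carcinoma line limits what the cultures represent. Whether the 3 experiments of a group began from separate passages is not given, so the tests measure the spread between these samples. In the labels the 0 ppm experiments carry the highest run numbers, while those of 0.1 and 0.5 ppm are interleaved below them. The paper states that the order of experiments was randomized. Comparisons with 0 ppm thus also set separate blocks of run numbers against each other, and the part of the run was not tested. Comparisons between chambers lie within the same experiments. Values are MAS5 signals, a linear probe-set intensity that has a meaning between arrays but not between probe sets, and differences are given as log2.

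The 26S proteasome degrades proteins that carry ubiquitin chains. Its 20S core is a barrel of alpha and beta rings, with the peptide-cutting sites on PSMB5, PSMB6 and PSMB7. The 19S cap binds and unfolds the substrate with the ATPases of its base and removes ubiquitin with its lid. Under interferon, cells make alternative catalytic subunits, PSMB8, PSMB9 and PSMB10, and the PA28 activator PSME1, which together favour peptides for antigen presentation.

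All 8 markers of A549 cells were measured. AKR1B10, an aldo-keto reductase that is abundant in this line, had log2 signals of 14.14 to 15.20, although KRT19, a keratin on the same list, reached only 4.62 to 7.13. Of 6 leukocyte markers, PTPRC, CD3E, MS4A1 and NKG7 had median log2 signals from -0.66 to 2.78, below the median of 4.78 over all probe sets, while CD14 and ITGAM had medians of 6.39 and 6.79, above it, and the summed signal of all 6 ranged from 121 to 428 between arrays. By group these sums ran from 201 to 422, 156 to 308, 203 to 428, 121 to 212, 168 to 314 and 180 to 267, in the order reference and exposure chamber of the 0, 0.1 and 0.5 ppm experiments. Of 5 fibroblast markers, COL1A1 had a median log2 signal of 8.22 and PDGFRA one of 5.09, and COL1A2, COL3A1 and DCN stood between 2.62 and 3.10. Of 3 endothelial markers, PECAM1 was near the probe-set median, at 4.81, and CDH5 and VWF were at 1.62 and 1.17. The part of other cell types in the proteasome values was not tested. The median signal of all probe sets ranged from 26.7 to 34.0. On 2 arrays the 5′ probe set of actin, a control for intact RNA, was low: replicate 3 of the 0 ppm and replicate 1 of the 0.1 ppm reference chamber, at log2 signals of 6.85 and 5.90 against 7.75 to 9.70 on the other 16 arrays. The 5′ probe set of GAPDH, a like control, was not low on these 2 arrays. Its log2 signals there were 14.61 and 14.67, against 13.67 to 14.31 on the other 16. For any gene measured here, fewer cells that carry its RNA and less of that RNA per cell cannot be told apart.

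By its brightest probe set, none of the 42 proteasome genes differed between any groups in limma at an unadjusted p under 0.05, which is the threshold of the study. This held in all 10 comparisons, namely exposure against reference chamber at each concentration, 0.1 or 0.5 against 0 ppm in the exposure chamber, the same between reference chambers, the change of the chamber difference, and the overall test over 6 groups. The share of all probe sets past the threshold was 4.84%, 4.00% and 3.92% between chambers at 0, 0.1 and 0.5 ppm, 4.47% and 4.56% for 0.1 and 0.5 against 0 ppm in the exposure chamber, and 3.68% and 4.54% between the reference chambers. It was 3.21% and 3.69% for the change of the chamber difference at 0.1 and 0.5 ppm, and 4.11% in the overall test. Over the brightest probe set of every gene the same shares were 3.69%, 2.99% and 3.05% between chambers, 3.55% and 3.60% in the exposure chamber, 2.70% and 3.61% between reference chambers, 2.49% and 2.88% for the change of the chamber difference and 3.23% overall. No probe set at all passed a Benjamini-Hochberg adjusted p of 0.05 in any of these fits. The lowest unadjusted limma p of a brightest probe set was 0.0602, for PSMB9 between 2 chambers that both held no formaldehyde. In the overall test the lowest was 0.227, again for PSMB9. Between the chambers at 0 ppm some dimmer probe sets did pass. They belonged to PSMB7 (log2 difference 1.22, limma p 0.0026), PSMB1 (1.14, limma p 0.017) and PSMG4 (-2.64, limma p 0.039). Those of PSMB1 and PSMG4 lay below the median probe-set signal.

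Few genes had groups without overlap. For 0.1 against 0 ppm in the exposure chamber the arrays of 2 of 42 genes did not overlap, both higher at 0.1 ppm, beside 8.28% of all genes in either direction. For 0.5 against 0 ppm it was 0 of 42 beside 8.25%. Between chambers it was 6, 2 and 2 of 42 at 0, 0.1 and 0.5 ppm, beside 9.43%, 7.27% and 5.99%. The shares among proteasome genes were near those over all genes or below them, except between the chambers of the 0 ppm experiments, where PSMA3 and PSME4 were higher and PSMA5, PSMB2, PSMB9 and PSMG3 lower in the exposure chamber. Dimmer probe sets did not always share the sign. Both of PSME4 had negative log2 differences there (-0.096 and -0.74) and that of PSMA5 a positive one (0.097). Those of PSMA3 were positive and those of PSMB2 had both signs.

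The precision of the comparisons bounds what they could have shown. For 0.1 and 0.5 against 0 ppm in the exposure chamber, the 95% intervals of 40 genes in each comparison stayed within 1 log2 unit of 0, a 2-fold change, and none stayed within 0.5. Between the chambers the intervals of 26, 7 and 38 genes at 0, 0.1 and 0.5 ppm stayed within 1. When limma's estimate of the spread was allowed to depend on signal level, 19 and 26 genes lay within 0.5 in the 2 exposure-chamber comparisons, and the median distance from the difference to its interval's end went from 0.59 to 0.40 and from 0.58 to 0.40. An absent call is therefore no statement that a gene's level was equal.

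In the exposure chamber, the median log2 difference of the 42 genes was 0.057 for 0.1 against 0 ppm, with 30 genes higher and 12 lower, and 0.00091 for 0.5 against 0 ppm, with 21 higher and 21 lower. Over the brightest probe set of every gene the medians were -0.040 and -0.036. Both comparisons share the same 0 ppm arrays, whose run numbers form a block apart from those of the 0.1 and 0.5 ppm arrays. Without replicate 3 of 0.5 ppm the median for 0.5 against 0 ppm was -0.098. Between chambers the median of the proteasome genes was -0.11 at 0 ppm, -0.041 at 0.1 ppm and -0.048 at 0.5 ppm, beside -0.098, -0.087 and -0.037 over all genes. Without the reference arrays of low actin signal it was 0.0068 at 0 ppm and 0.085 at 0.1 ppm. The differences of all 42 genes in the exposure chamber lay between -0.18 and 0.27 for 0.1 ppm and between -0.24 and 0.23 for 0.5 ppm. Single experiments varied more than the groups. Within an experiment the median difference between exposure and reference chamber ran from -0.48, in the 0.1 ppm experiment of replicate 1, whose reference array is one of those with low actin signal, to 0.21, in the 0.1 ppm experiment of replicate 3.

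**Figure D1:**
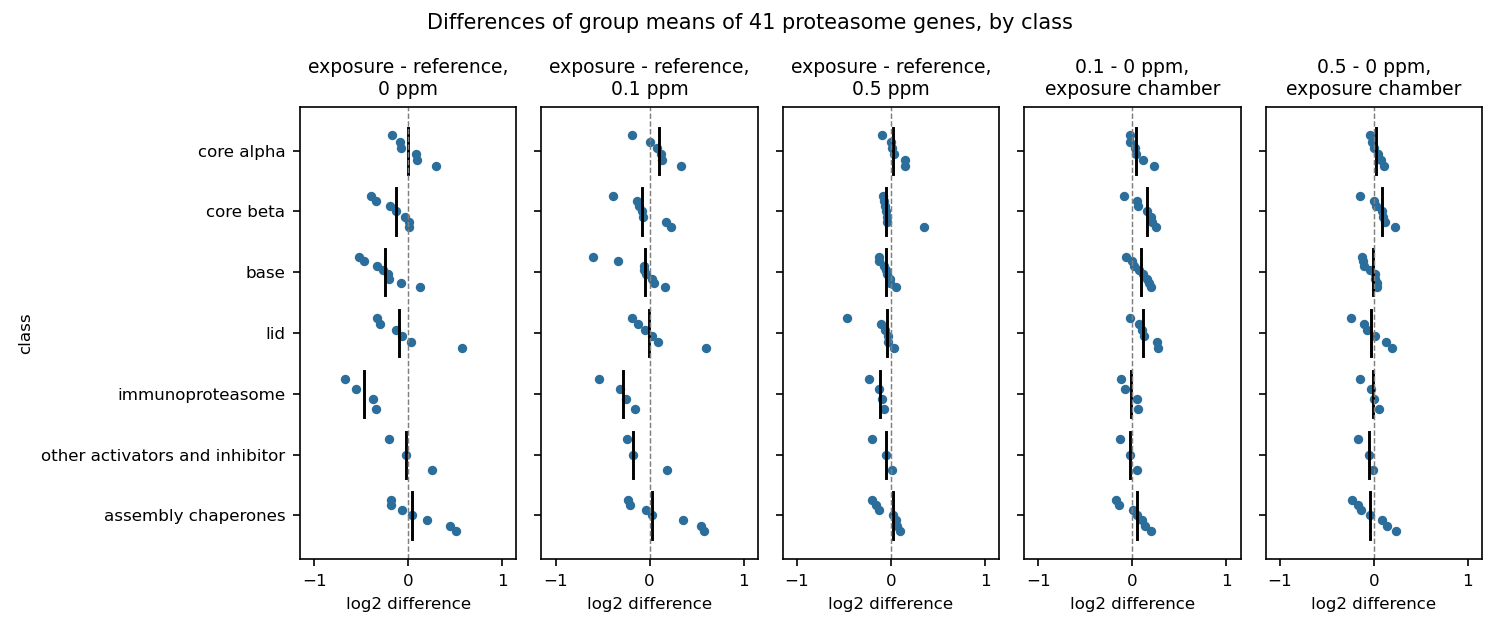
Log2 difference of group means (horizontal axis) for 41 proteasome genes by class (vertical axis), in 5 comparisons of 3 arrays with 3. Points are genes, the black bar is the class median and the dashed line is 0; PSMA8, whose signals lay near background, is left out. The immunoproteasome genes lie left of 0 in the 3 chamber comparisons and on both sides of 0 in the comparisons with 0 ppm in the exposure chamber.

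The core alpha genes form the outer rings that gate entry to the barrel. Their medians were 0.035 and 0.020 for 0.1 and 0.5 against 0 ppm in the exposure chamber, with 4 of 6 and 3 of 6 higher. PSMA4 varied least over the 18 arrays (SD 0.20), with signals of 6572 to 11684 (median 8976). PSMA1 varied most (SD 0.31), with signals of 9118 to 17342 (median 10734). Its second probe set followed the first over the 18 arrays (r = 0.99, as a description). For PSMA2, r between its brightest and its next probe set was 0.034, so its values depend on the probe set taken. For PSMA3 the chambers of the 0 ppm experiments did not overlap, exposure above reference, with a log2 difference of 0.093 (95% interval -0.49 to 0.68).

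The core beta genes carry the catalytic sites and their structural neighbours. PSMB5 holds the chymotrypsin-like site. PSMB5 had signals of 4278, 3805 and 3464 in the reference chamber and 4159.6, 3674 and 3779 in the exposure chamber of the 0 ppm experiments. Signals of PSMB5 stood at 3612, 4422 and 3825 in the reference chamber and 4789, 4562 and 4466 in the exposure chamber of the 0.1 ppm experiments. For PSMB5 the 0.5 ppm experiments gave 3871, 4918 and 4043 in the reference chamber and 3718, 4612 and 4138 in the exposure chamber. All 3 arrays at 0.1 ppm in the exposure chamber lay above all 3 at 0 ppm, by a log2 difference of 0.25 (95% interval -0.25 to 0.76), while at 0.5 ppm the groups overlapped with 0.10 (95% interval -0.42 to 0.62). PSMB5 was the core beta gene that varied least, with an SD of 0.15 over the 18 arrays. Adding 32 to every signal before the log narrows the spread of dim probe sets. With it PSMB5 passed the threshold for 0.1 against 0 ppm in the exposure chamber (limma p 0.031, adjusted p 0.9997). No other proteasome gene did, and the share over all probe sets in that fit is not given here.

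PSMB6 holds the caspase-like site. PSMB6 had signals of 4389, 5103 and 6973 in the reference chamber and 3973, 3929 and 4428 in the exposure chamber of the 0 ppm experiments. Signals of PSMB6 stood at 8819, 4714 and 4139 in the reference chamber and 4172, 4450.4 and 4158 in the exposure chamber of the 0.1 ppm experiments. For PSMB6 the 0.5 ppm experiments gave 3780.4, 4836 and 4389 in the reference chamber and 3783, 4193 and 4523 in the exposure chamber. The signals of 6973 and 8819 were those of the arrays with low actin signal, and the other 16 arrays ranged from 3780.4 to 5103. The log2 differences were 0.053 (95% interval -0.45 to 0.56) at 0.1 ppm and 0.018 (95% interval -0.49 to 0.53) at 0.5 ppm against 0 ppm in the exposure chamber.

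PSMB7 holds the trypsin-like site. PSMB7 had signals of 6808, 7359 and 11903 in the reference chamber and 7047, 7387 and 7699.9 in the exposure chamber of the 0 ppm experiments. Signals of PSMB7 stood at 14440.4, 6343 and 6229.7 in the reference chamber and 7811, 6330.2 and 9179 in the exposure chamber of the 0.1 ppm experiments. For PSMB7 the 0.5 ppm experiments gave 5778, 8930.2 and 8501 in the reference chamber and 6261, 6419 and 10015 in the exposure chamber. It was the most variable core beta gene (SD 0.35), again highest on the 2 arrays with low actin signal, and its log2 differences in the exposure chamber were 0.060 (95% interval -0.53 to 0.65) and 0.0020 (95% interval -0.66 to 0.67). PSMB1, a structural subunit, was higher in the exposure chamber on all arrays at 0.5 ppm, at signals of 9831, 9847 and 12914 against 9233, 7773 and 8448. The log2 difference was 0.35 (95% interval -0.25 to 0.95). With 32 added before the log PSMB1 passed the threshold (limma p 0.049, adjusted p 0.99999). Its next brightest probe set had a log2 difference of only 0.012 in the same comparison. A further probe set of PSMB1, below the median probe-set signal, had 0.43. PSMB3 lay higher on all 3 arrays at 0.1 than at 0 ppm in the exposure chamber, by 0.20 (95% interval -0.31 to 0.70). PSMB2 was lower in the exposure chamber in all 9 experiments, with log2 differences from -0.59 in the 0 ppm to -0.061 in the 0.1 ppm experiment of replicate 2.

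The immunoproteasome genes stood lower in the exposure than in the reference chamber at every concentration, 0 ppm included, without passing the test. All 4 had negative log2 differences in each of the 3 chamber comparisons, beside 11383, 11291 and 11097 of 19775 genes at 0, 0.1 and 0.5 ppm. The immunoproteasome medians were -0.47, -0.28 and -0.11, and all 4 were also lower after quantile normalization (-0.45, -0.21 and -0.083). Since both chambers were free of formaldehyde in the 0 ppm experiments, the largest of these medians belonged to cultures that received none. Without the 2 arrays of low actin signal the median was -0.26 at 0 ppm, with 4 of 4 lower, and 0.018 at 0.1 ppm, with 2 of 4 lower. Against 0 ppm in the exposure chamber the medians were -0.020 at 0.1 ppm and -0.015 at 0.5 ppm, with 2 of 4 and 1 of 4 higher. Between reference chambers, none of which held formaldehyde, the medians were -0.16 and -0.40 for the 0.1 and 0.5 against the 0 ppm experiments. In both, 4 of 4 were lower. Without the arrays of low actin signal these medians were -0.33 and -0.17, again with 4 of 4 lower. The change of the chamber difference, the comparison that sets the chambers at 0.5 ppm against those at 0 ppm, gave 0.54 (95% interval -0.20 to 1.28) for PSMB9, and it passed the threshold for no gene.

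These 4 genes are known targets of interferon, and their promoter windows are printed to show which of them hold the letters of an interferon element, each from 250 bases before to 50 after a RefSeq start site of GRCh38.p14. Capitals mark matches, on either strand, to GAAA repeated after 2 bases of any kind, the core of the interferon-stimulated response element, or to TGACNNNGC, the core of the antioxidant response element. The windows are chr6:32843998-32844297 (minus strand) for PSMB8, chr6:32853942-32854241 (plus strand) for PSMB9, chr16:67936801-67937100 (minus strand) for PSMB10 and chr14:24135944-24136243 (plus strand) for PSME1.
PSMB8: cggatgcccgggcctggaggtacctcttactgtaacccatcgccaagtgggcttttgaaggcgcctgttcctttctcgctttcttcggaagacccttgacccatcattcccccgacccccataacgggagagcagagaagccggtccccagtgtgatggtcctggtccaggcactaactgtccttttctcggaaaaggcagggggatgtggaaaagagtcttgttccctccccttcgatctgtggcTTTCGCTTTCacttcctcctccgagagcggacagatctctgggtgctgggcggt
PSMB9: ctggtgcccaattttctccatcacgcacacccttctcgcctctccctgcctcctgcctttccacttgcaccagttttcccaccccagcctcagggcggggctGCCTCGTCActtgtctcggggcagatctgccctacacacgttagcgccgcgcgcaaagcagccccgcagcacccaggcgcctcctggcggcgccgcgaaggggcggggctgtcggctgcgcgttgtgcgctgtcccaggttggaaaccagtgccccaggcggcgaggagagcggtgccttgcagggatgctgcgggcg
PSMB10: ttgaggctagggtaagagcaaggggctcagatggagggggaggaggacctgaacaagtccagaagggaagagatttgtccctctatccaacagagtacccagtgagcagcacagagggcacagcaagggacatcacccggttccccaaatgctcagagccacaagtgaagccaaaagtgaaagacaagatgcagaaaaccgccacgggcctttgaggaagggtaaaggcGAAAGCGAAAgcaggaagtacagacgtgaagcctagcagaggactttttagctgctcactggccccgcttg
PSME1: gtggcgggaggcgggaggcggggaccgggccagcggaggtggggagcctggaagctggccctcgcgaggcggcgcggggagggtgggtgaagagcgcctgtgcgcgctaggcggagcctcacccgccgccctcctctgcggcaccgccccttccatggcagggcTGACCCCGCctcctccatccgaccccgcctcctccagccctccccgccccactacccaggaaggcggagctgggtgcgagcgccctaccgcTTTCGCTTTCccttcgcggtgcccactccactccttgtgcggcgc
PSMB8, PSMB10 and PSME1 each hold the interferon motif, read on the opposite strand as TTTCGCTTTC in PSMB8 and PSME1, whereas the PSMB9 window holds only the antioxidant motif, and PSME1 holds both. PSMB8 has 2 start sites in the table and the window with the match is shown. Among all proteasome promoters the interferon motif stood in 6 of 43 windows and the antioxidant motif in 13 of 43, for the 36 genes with an entry, beside 3.57% and 13.3% of all 35116 windows. A match is a description of letters and no measurement of binding.

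PSMB9 replaces PSMB6 in the immunoproteasome. PSMB9 had signals of 421, 569 and 654 in the reference chamber and 332, 368 and 319 in the exposure chamber of the 0 ppm experiments. Signals of PSMB9 stood at 645, 325 and 341 in the reference chamber and 357, 295 and 405 in the exposure chamber of the 0.1 ppm experiments. For PSMB9 the 0.5 ppm experiments gave 336, 409 and 413 in the reference chamber and 324, 333 and 401 in the exposure chamber. In the 0 ppm experiments the chambers did not overlap, reference above exposure, by a log2 difference of -0.67 (95% interval -1.38 to 0.040). In 7 other fits this comparison did pass the threshold: with 32 added before the log, with a signal-dependent spread, over the probe sets above the median signal, with all 18 arrays in 1 fit, after averaging probe sets, without replicate 1 of the reference chamber, and, as chosen after seeing the data, with the experiment as a block and a signal-dependent spread together. The adjusted p of PSMB9 from limma in these fits ran from 0.537 to 0.902. PSMB9 did not pass after quantile normalization (limma p 0.077) or without the array of low actin signal (log2 difference -0.53, limma p 0.11). Nor did it pass with the experiment as a block alone or without any other single array. At 0.1 ppm the chambers overlapped with -0.25 (95% interval -1.26 to 0.76), and at 0.5 ppm they overlapped with -0.13 (95% interval -0.71 to 0.46). PSMB9 was lower in the exposure chamber in 8 of 9 experiments.

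PSMB10 replaces PSMB7. PSMB10 had signals of 841, 1043 and 1768 in the reference chamber and 677, 873 and 826 in the exposure chamber of the 0 ppm experiments. Signals of PSMB10 stood at 2136, 793 and 749.5 in the reference chamber and 697, 704 and 837 in the exposure chamber of the 0.1 ppm experiments. For PSMB10 the 0.5 ppm experiments gave 756, 871 and 884 in the reference chamber and 731, 695 and 702 in the exposure chamber. The arrays of low actin signal stood at 1768 and 2136, and the remaining reference arrays lay between 749.5 and 1043. At 0.5 ppm all exposure arrays lay below all reference arrays, with a log2 difference of -0.24 (95% interval -0.77 to 0.30). PSMB10 was the most variable of the 4 genes (SD 0.45) and, as for PSMB9, it was lower in the exposure chamber in 8 of 9 experiments. Among all 42 proteasome genes 4 were lower in at least 8 of 9 experiments, namely PSMB2, PSMB9, PSMB10 and the lid gene PSMD3, and 3 were higher, namely PSMA2, PSMA3 and PSME4. Over all genes 8.36% were lower and 3.56% higher in at least 8 of 9. These counts rest on the brightest probe set of each gene. Both dimmer probe sets of PSME4 had negative chamber differences at 0.1 ppm (-0.19 and -0.95), against 0.18 for the brightest. The dimmer probe set of PSMA2 had 0.030 at 0 ppm and -0.23 at 0.1 ppm.

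PSMB8 replaces PSMB5. PSMB8 had signals of 479.6, 641 and 642 in the reference chamber and 409, 452 and 522 in the exposure chamber of the 0 ppm experiments. Signals of PSMB8 stood at 767, 354 and 529 in the reference chamber and 466, 355 and 455 in the exposure chamber of the 0.1 ppm experiments. For PSMB8 the 0.5 ppm experiments gave 443, 514 and 515 in the reference chamber and 430.3, 416 and 535 in the exposure chamber. The groups overlapped in every comparison, and PSMB8 varied least of the 4 genes (SD 0.29). PSME1 is the alpha subunit of the PA28 activator. PSME1 had signals of 5761, 7085 and 9979 in the reference chamber and 5641, 5339.7 and 6184 in the exposure chamber of the 0 ppm experiments. Signals of PSME1 stood at 10578, 5204 and 5174 in the reference chamber and 6562, 4878 and 6516 in the exposure chamber of the 0.1 ppm experiments. For PSME1 the 0.5 ppm experiments gave 4994, 6862 and 5984 in the reference chamber and 4993, 5686 and 6208 in the exposure chamber. Its values of 9979 and 10578 were those of the arrays of low actin signal. In the exposure chamber the log2 differences for 0.5 against 0 ppm were -0.0028 (95% interval -0.57 to 0.57) for PSMB8, 0.051 (95% interval -0.48 to 0.58) for PSMB9, -0.15 (95% interval -0.68 to 0.38) for PSMB10 and -0.027 (95% interval -0.55 to 0.50) for PSME1.

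**Figure D2:**
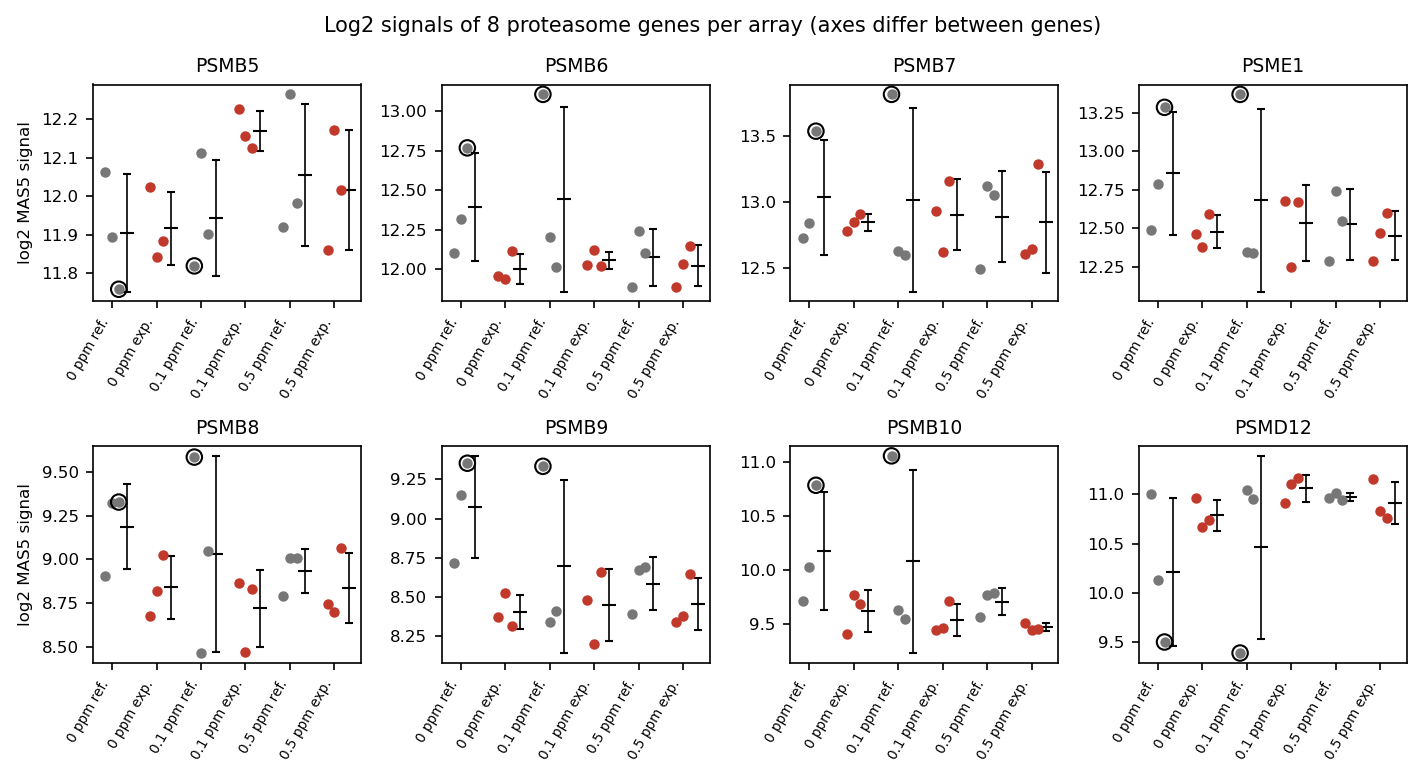
Log2 MAS5 signals (vertical axes, which differ between genes) of 8 proteasome genes in the 6 groups (horizontal axis), grey for reference and red for exposure chambers. Points are arrays, the bar beside them is the mean ± SD (n = 3), and open circles ring the 2 arrays with low 5′ actin signal, which are the highest of the 18 for PSMB6, PSMB7, PSMB8, PSMB9, PSMB10 and PSME1 and the lowest for PSMB5 and PSMD12.

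The base genes encode the ATPase ring that unfolds substrates and the large scaffold and ubiquitin-receptor subunits around it. Against 0 ppm in the exposure chamber their medians were 0.091 at 0.1 ppm and -0.014 at 0.5 ppm. Between chambers 7 of 8, 5 of 8 and 7 of 8 were lower at 0, 0.1 and 0.5 ppm, beside 11383, 11291 and 11097 of 19775 genes. The base medians there were -0.24, -0.045 and -0.050. Without the arrays of low actin signal the median was -0.0045 at 0 ppm and turned to 0.30 at 0.1 ppm, with 6 of 8 higher. PSMC6, an ATPase, varied least (SD 0.30), at signals of 6310.1 to 13736 (median 9009). PSMD2, a scaffold of the base, varied most (SD 0.44), at 934 to 2908 (median 1422). Its 2 highest signals were those of the arrays of low actin signal, and between chambers at 0 ppm its log2 difference was -0.52 (95% interval -1.38 to 0.34).

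The lid genes include PSMD14, the deubiquitinase that clips chains from substrates, and its partners. Their medians were 0.11 and -0.031 for 0.1 and 0.5 against 0 ppm in the exposure chamber. PSMD6 varied least (SD 0.22), at signals of 4471 to 7658 (median 5372). PSMD12 varied most (SD 0.52). PSMD12 had signals of 2053, 1119.9 and 727 in the reference chamber and 1989, 1622 and 1702 in the exposure chamber of the 0 ppm experiments. Signals of PSMD12 stood at 673, 2102 and 1982 in the reference chamber and 1918, 2193 and 2299 in the exposure chamber of the 0.1 ppm experiments. For PSMD12 the 0.5 ppm experiments gave 1989, 2064 and 1966 in the reference chamber and 2269.9, 1815 and 1733 in the exposure chamber. Here the arrays of low actin signal were the lowest, at 727 and 673, and the remaining 16 ranged from 1120 to 2299. The log2 difference of PSMD12 between the chambers was 0.57 (95% interval -0.50 to 1.65) at 0 ppm and 0.60 (95% interval -0.69 to 1.88) at 0.1 ppm. Its second probe set had log2 differences of -0.13 and -0.27 in these comparisons and ran the other way over the 18 arrays (r = -0.54). On the arrays of low actin signal this second probe set was 0.45 higher on the log2 scale than on the others, while the brightest had a difference of -1.44. PSMD3 had a log2 difference between the chambers at 0.5 ppm of -0.47 (95% interval -1.64 to 0.70).

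Among the other activators and the inhibitor, PSME4, the PA200 activator, varied least (SD 0.16), at signals of 7638 to 11146 (median 8656). PSME3, the nuclear PA28 gamma, varied most (SD 0.28), at 1217 to 2494 (median 1854). For PSMF1, an inhibitor of the core, the 2 brightest probe sets were opposed over the arrays (r = -0.56). The medians of the 3 genes were -0.027 and -0.053 for 0.1 and 0.5 against 0 ppm in the exposure chamber.

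The assembly chaperones help to build the core and the cap and are not part of the finished particle. PSMG2, a partner of PSMG1 in assembling the alpha ring, was the quietest of all 42 genes (SD 0.14), at signals of 1617 to 2252 (median 1900.0). PSMD10, also called gankyrin, an assembly factor of the base, was the most variable chaperone (SD 0.56). PSMD10 had signals of 2622, 1769 and 841 in the reference chamber and 2284, 1955 and 2232 in the exposure chamber of the 0 ppm experiments. Signals of PSMD10 stood at 763, 2098 and 2830.2 in the reference chamber and 2016, 2295 and 3255 in the exposure chamber of the 0.1 ppm experiments. For PSMD10 the 0.5 ppm experiments gave 2800.4, 2018 and 2365 in the reference chamber and 2888, 1924 and 2921 in the exposure chamber. Signals of 841 and 763 on the arrays of low actin signal stood apart from 1769 to 3255 on the others, and its second probe set was lower there as well (log2 difference -0.91, against -1.56 for the brightest). PSMD5, another base assembly factor, had a like distribution. PSMD5 had signals of 5387, 3799 and 1807 in the reference chamber and 5326, 4748 and 4228 in the exposure chamber of the 0 ppm experiments. Signals of PSMD5 stood at 1711, 4938 and 5295 in the reference chamber and 5756, 5432 and 4507 in the exposure chamber of the 0.1 ppm experiments. For PSMD5 the 0.5 ppm experiments gave 5722, 5091 and 4723 in the reference chamber and 5862, 4999 and 4904 in the exposure chamber. Its lowest signals were 1807 and 1711 on the same arrays, against 3799 to 5862 on the other 16. In the exposure chamber, where no array had such a low actin signal, the log2 differences for 0.5 against 0 ppm were 0.23 (95% interval -0.41 to 0.88) for PSMD10 and 0.14 (95% interval -0.40 to 0.68) for PSMD5.

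PSMA8, an alpha subunit of the testis proteasome, was the 1 gene of the 42 below the median probe-set signal. It had signals of 0.657 to 15.98 (median 1.98), which are near background, and its SD of 1.30 on the log2 scale and its wide intervals, such as 0.14 (95% interval -2.45 to 2.72) for 0.5 against 0 ppm, describe this low signal.

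Across the 18 arrays, many proteasome genes stood apart on the 2 arrays of low 5′ actin signal. On both, 17 of 42 proteasome genes were higher than on any of the other 16 arrays, and 5 were lower than on any, beside 20.0% and 12.8% of all genes for the same pattern in each direction. The higher ones were all 4 immunoproteasome genes, 6 of the 8 base genes (PSMC1, PSMC3, PSMC4, PSMD1, PSMD2 and PSMD4), the core beta genes PSMB4, PSMB6 and PSMB7, the lid genes PSMD6 and PSMD8, and PSMF1 and PSMG4. The lower ones were PSMA2, PSMB5, PSMD12, PSMD5 and PSMD10. PSMD8 had signals of 13825 and 13891 there against 4557 to 7736 on the other 16 arrays. The part of RNA quality in this pattern was not tested, and both arrays belong to reference chambers, so that the chamber comparisons at 0 and 0.1 ppm contain them and those within the exposure chamber do not.

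**Figure D3:**
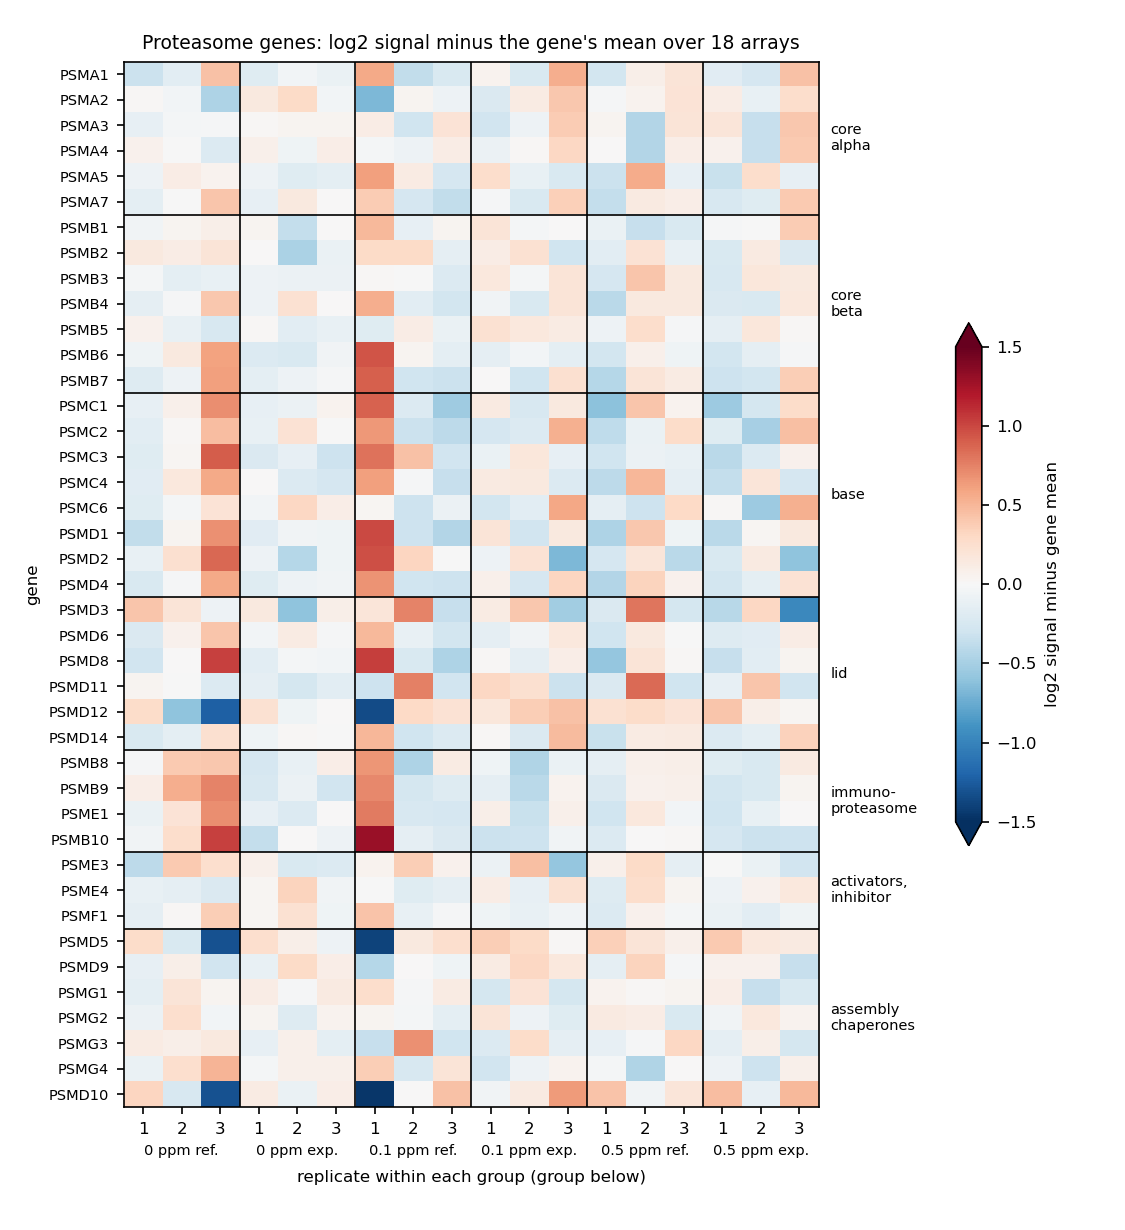
Log2 signal minus the gene's mean over the 18 arrays (colour, red higher and blue lower, cut at 1.5) for 41 proteasome genes (vertical axis, by class) on the 18 arrays (horizontal axis, replicates 1 to 3 of each group). Columns 0 ppm reference replicate 3 and 0.1 ppm reference replicate 1 stand out, red in the base and immunoproteasome and blue in PSMD12, PSMD5 and PSMD10; PSMA8 is left out.

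As a description over 18 arrays that share the scaling, the mean deviation of a class was set against the actin 3′ minus 5′ log2 signal. This measure grows as the signal of the 5′ probe set falls below that of the 3′ probe set. Pearson's r was 0.85 for the immunoproteasome (Spearman's rho 0.77), 0.83 for the base (rho 0.75), 0.71 for the core beta (rho 0.56) and 0.69 for the core alpha genes (rho 0.84). It was -0.81 for the assembly chaperones (rho -0.51) and -0.033 for the lid (rho -0.13), whose members moved in opposite directions. Without the 2 arrays farthest from the median, which are those of low actin signal, r was 0.59, 0.52, 0.27 and 0.77 for the immunoproteasome, base, core beta and core alpha, and -0.36 for the chaperones, so that most of the core beta and chaperone relation rests on those arrays. Against the same measure for GAPDH, r was -0.29 for the immunoproteasome. On the 2 arrays of low actin signal the GAPDH measure was 0.16 and 0.15, at the low end of the 18 arrays, where the highest was 0.64. Among single genes, PSMB7 (r = 0.89), PSMA1 (0.86), PSMD4 (0.86) and PSME1 (0.85) followed the actin measure most closely, and PSMD5 (-0.83), PSMD12 (-0.79) and PSMD10 (-0.65) ran against it.

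**Figure D4:**
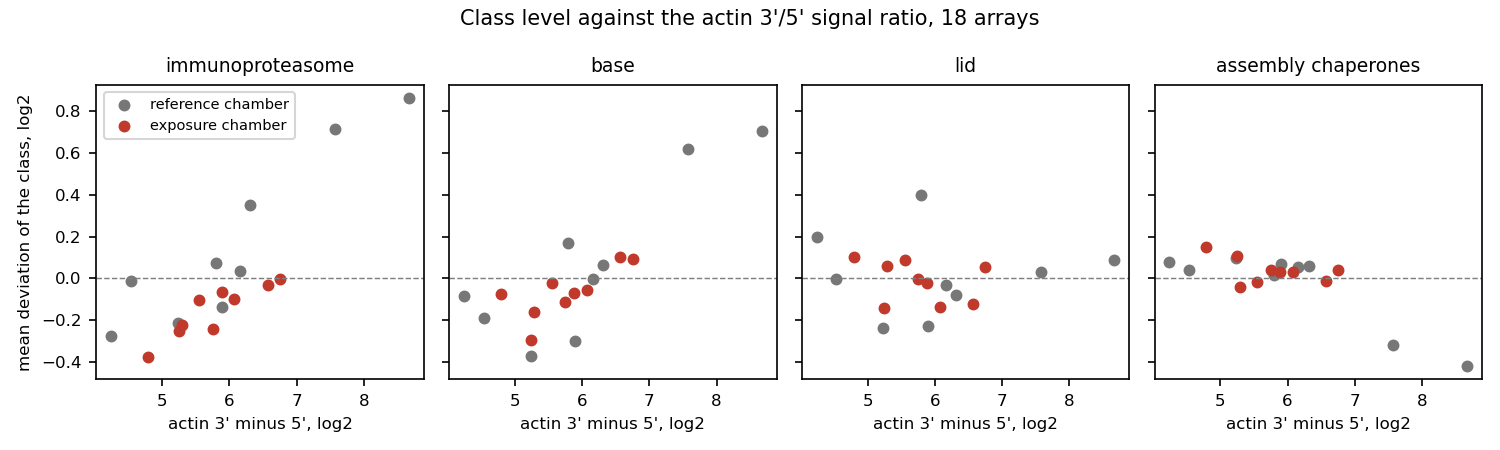
Mean deviation of a class from its genes' means (vertical axis, log2) against the actin 3′ minus 5′ log2 signal (horizontal axis) on 18 arrays, grey for reference and red for exposure chambers, for 4 classes. The 2 reference arrays at the right, at 7.57 and 8.67, have the highest immunoproteasome and base values and the lowest assembly chaperone values.

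The genes of one class varied together only loosely. The median correlation between 2 proteasome genes over the 18 arrays was 0.17 over all 861 pairs, 0.29 over the 109 pairs within a class and 0.14 over the 752 pairs between classes. With the group means removed the medians were 0.18, 0.35 and 0.16. Of the 20 genes with more than 1 probe set above the median signal, r between the brightest and the next ran from -0.56 in PSMF1 to 0.99 in PSMA1, and it was below 0 in PSMA5, PSMB7, PSMC2, PSMD12 and PSMF1.

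Genes that work around the proteasome did not pass the threshold either. Of 12 partners and helpers, such as ADRM1, a ubiquitin receptor of the base, and POMP, the core maturation factor, of 7 genes of transcriptional control, such as NFE2L1, which raises subunit expression when the proteasome is impaired, of 12 genes of ubiquitin supply and delivery, such as VCP, and of 11 genes of antigen processing, such as TAP1, 0 passed the threshold in any of the 9 comparisons between groups. In the exposure chamber at 0.5 ppm their medians were -0.014, -0.11, -0.068 and -0.11, beside -0.036 over all genes. The log2 signals of NFE2L1 lay between 11.80 and 12.75 over the 18 arrays, and those of POMP between 13.17 and 13.73.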

How the data were processed

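RNA was amplified and labelled by the authors and hybridised to Affymetrix HG-U133 Plus 2.0 arrays, 1 array per sample. The deposited values are MAS5 intensities on a linear scale, and all 18 arrays have the same 2% trimmed mean of 500. MAS5 subtracts mismatch signal, so dim probe sets are noisy. The number of arrays limits the precision.

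Signals were log2 transformed without an offset and compared with limma 3.58.1 (lmFit and eBayes, R 4.3.3), after the study's methods, on the arrays of the groups compared, at an unadjusted p under 0.05, with the Benjamini-Hochberg adjusted p over all 54675 probe sets beside it. The scripts were tested on simulated data. Probe sets were named from GEO's platform annotation, in which 41097 name 1 gene. Promoters are from RefSeq (GRCh38.p14); 36 of 42 genes matched, and motifs were searched on both strands. Figures were drawn with matplotlib 3.10.9.

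Genes named in full are the catalytic and immunoproteasome genes, tissue-restricted genes, any gene past the threshold and, in each class, those with the lowest and highest SD over the 18 arrays; further genes were named after their values were seen. The proteasome genes, classes and lists were chosen with earlier results of these data known.

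Groups were taken from the labels. Chambers with the same replicate number at 1 concentration ran in the same experiment, according to the shared run numbers in the labels and the parallel chambers of the methods. The correlation of their deviations from the group means was between -0.02 and 0.12 over all probe sets and between -0.30 and 0.66 over the proteasome genes, so the data add little to that pairing. Alternatives were quantile normalization, 32 added before the log, a filter on signal, a spread that depends on signal, all arrays in 1 fit, averaged probe sets, the experiment as a block, and leaving out arrays.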

Additional observations from a re-analysis of the deposited data

How the results depend on the processing

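The count of proteasome genes past the threshold was 0 in every main comparison. Between the chambers at 0 ppm it was 1, PSMB9, with 32 added before the log, over probe sets above the median signal, with a signal-dependent spread, with all 18 arrays in 1 fit and after averaging probe sets. Between the chambers at 0.5 ppm it was 1 with 32 added (PSMB1) and 1 after averaging (PSMD5), where the average takes in a probe set below the median signal. It was 1 for 0.1 against 0 ppm in the exposure chamber with 32 added (PSMB5), and 1 between the 0.1 and 0 ppm reference chambers after averaging (PSMG4). The average of PSMG4 also takes in probe sets below the median signal. Between the 0.5 and 0 ppm reference chambers it was 1 with 32 added (PSMB9) and 1 with a signal-dependent spread (PSMD12). For the change of the chamber difference at 0.5 ppm it was 2 with 32 added (PSMB1 and PSMB9) and 1 after averaging (PSMD5). With the experiment as a replicate block the count remained 0 in all 5 comparisons that pair chambers and in the overall test. With this block and a signal-dependent spread together, chosen after seeing the data, it was 4 between the chambers at 0 ppm (PSMD2, PSMD12, PSMB9 and PSMB10) and 2 at 0.5 ppm (PSMB1 and PSMD3). The limma adjusted p of these calls was 0.634 at 0 ppm and 0.951 at 0.5 ppm. Shares over all probe sets are not given for the alternative fits, so these counts cannot be read as more than the background of each fit.

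Leaving out 1 array at a time gave counts from 0 to 2 between the chambers at 0 ppm, from 0 to 1 between the 0.5 and 0 ppm reference chambers and from 0 to 2 for the change of the chamber difference at 0.5 ppm, in each case highest without replicate 1 of the 0 ppm reference chamber (PSMD12 alone between the reference chambers, PSMD12 and PSMB9 in the other comparisons). In the remaining comparisons it was 0 without any array. The median of the proteasome genes for 0.5 against 0 ppm in the exposure chamber ran from -0.098 to 0.049, and for 0.1 against 0 ppm from 0.0061 to 0.10. Between the chambers it ran from -0.19 to 0.0068, from -0.18 to 0.085 and from -0.15 to 0.030 at 0, 0.1 and 0.5 ppm, so that its sign there rested on single arrays. Without both arrays of low actin signal it was 0.0068 and 0.085 at 0 and 0.1 ppm, and for the change of the chamber difference at 0.5 ppm it went from 0.061 to -0.049. Over the alternatives tried, 143 counts remained 0 and 18 did not. Of 136 medians, 28 had the other sign, and 135 differed from the reported value by less than the spread between replicate arrays (1 SD of the difference); the cause was not tested. Groups of 3 arrays limit the precision, and dim probe sets widen the intervals of bright ones where limma draws each spread towards 1 common value.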
